A study of Mus musculus with 30 samples.

Results

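The 8 genes described here encode proteins that the liver secretes into blood plasma, and their transcripts were followed in mouse kidney. They are the fibrinogen chain genes Fga, Fgb and Fgg, the alpha-1-antitrypsin copies Serpina1a, Serpina1b and Serpina1d, the haptoglobin gene Hp and the apolipoprotein H gene Apoh. They are 8 of the 55385 genes in the deposited tables, and all 8 passed the filter on low counts that left 18177 kidney genes. They were chosen by levels and differences measured in these same kidney libraries, so their kidney values are a description and carry no test. The study sequenced kidney and retina RNA of 16-week-old mice that were wild type (WT) or carried a global Camk2d knockout (KO), each with Lepr(db/db), called diabetic, or Lepr(+/+), called non-diabetic. Lepr encodes the leptin receptor, and mice homozygous for the db allele become obese and hyperglycaemic. Kidney had 4 groups of 4 mice each, KO diabetic, KO non-diabetic, WT diabetic and WT non-diabetic, with a different animal behind each library. Libraries are named K and the animal number: K587, K588, K591 and K596 for KO diabetic, K559, K560, K582 and K584 for KO non-diabetic, K597, K645, K844 and K877 for WT diabetic, and K812, K819, K834 and K861 for WT non-diabetic. The knockout is global, so kidney values cannot be assigned to loss of Camk2d within the kidney. The labels name neither sex nor kidney region.

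Fibrinogen is built from paired Aα, Bβ and γ chains, encoded by Fga, Fgb and Fgg, and thrombin turns it into fibrin, the mesh of a clot. Hepatocytes make nearly all circulating fibrinogen, and they raise all the chains together in the acute phase response through interleukin 6 and STAT3. Kidney tubule cells are known to transcribe fibrinogen genes after injury, with the chains not necessarily in step. Alpha-1-antitrypsin is the main plasma inhibitor of neutrophil elastase, and the mouse has several near-identical copies of its gene where humans have 1. Haptoglobin binds free haemoglobin and is made by liver and by fat cells. Apolipoprotein H, also called beta-2-glycoprotein I, binds anionic phospholipid.

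The kidney libraries held 19870485 to 22643055 counts each, and Camk2d lay at 0.0864 to 0.557 CPM in the 8 KO kidneys and at 10.3 to 19.8 CPM in the 8 WT kidneys. CPM is the count scaled to a common library size. Proximal tubule markers, 10 genes of the main cell type of the cortex, summed to 13085 to 27842 CPM in KO diabetic and 22455 to 53355 CPM in KO non-diabetic kidneys, and to 15003 to 20575 CPM in WT diabetic and 24467 to 52095 CPM in WT non-diabetic kidneys, where the WT groups did not overlap. Kap alone ranged over 577 to 40609 CPM (median 13369), so the sums mainly follow this gene and not the 10 markers as a set. The median log2 fold change of the 10 was 0.27 for WT diabetic over WT non-diabetic kidneys. It was -0.47 for KO diabetic over WT diabetic and -0.41 for KO diabetic over KO non-diabetic kidneys. The part of these markers in the diabetes differences of the 8 genes was not tested. Mitochondrially encoded transcripts, often read as a sign of RNA quality, took 31.94%, 31.49%, 45.41% and 22.23% of counts in KO diabetic libraries (K591 the highest of all), 22.01% to 29.2% in KO non-diabetic, 24.55% to 26.14% in WT diabetic and 23.46% to 36.4% in WT non-diabetic ones (K861 the highest there). Thus 3 of the 4 KO diabetic libraries lay above all WT diabetic ones. Whether this share reflects RNA quality or the cells sampled was not tested. By transcript, 8 kidney libraries had high Xist (8030 to 10932 counts) and 8 had Y-linked transcripts (1143 to 2623 counts), with 2 of each kind in every group. In bulk RNA, fewer cells of a type and less RNA per cell cannot be told apart.

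The fibrinogen genes lie next to each other on chromosome 3, and their promoter windows are shown because Fga and Fgg had their highest group mean in the same kidneys. In GRCm38, Fgg spans 83007724 to 83015049 on the plus strand (ENSMUSG00000033860.13), Fga spans 83026076 to 83033627 on the plus strand (ENSMUSG00000028001.16), and Fgb spans 83040141 to 83049863 on the minus strand (ENSMUSG00000033831.5). Fgg overlaps the noncoding gene Gm30097 on the other strand, and whether strand was used in counting is not given in the sources used here. Each window, from RefSeq on GRCm38.p6, runs from 250 bases before to 50 bases after the annotated start. They are chr3:83025903-83026202 (plus) for Fga, chr3:83049814-83050113 (minus) for Fgb and chr3:83007474-83007773 (plus) for Fgg. Capitals mark matches, on either strand, to 3 motifs that liver plasma protein promoters are known for: CTGGGAA (core of an interleukin 6 response element), TTGCNNAA (C/EBP) and GTTAAT (part of an HNF1 site).
Fga: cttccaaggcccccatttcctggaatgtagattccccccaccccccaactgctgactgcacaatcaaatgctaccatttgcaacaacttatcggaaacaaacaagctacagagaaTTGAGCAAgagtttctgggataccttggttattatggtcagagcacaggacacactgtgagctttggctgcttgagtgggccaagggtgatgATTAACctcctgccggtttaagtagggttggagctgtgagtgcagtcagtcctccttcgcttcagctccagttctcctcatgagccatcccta
Fgb: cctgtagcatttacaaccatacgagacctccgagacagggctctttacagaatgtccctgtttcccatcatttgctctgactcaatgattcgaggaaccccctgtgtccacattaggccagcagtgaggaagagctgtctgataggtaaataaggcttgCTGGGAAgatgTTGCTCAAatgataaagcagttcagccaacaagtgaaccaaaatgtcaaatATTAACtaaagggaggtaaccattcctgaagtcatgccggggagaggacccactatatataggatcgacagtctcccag
Fgg: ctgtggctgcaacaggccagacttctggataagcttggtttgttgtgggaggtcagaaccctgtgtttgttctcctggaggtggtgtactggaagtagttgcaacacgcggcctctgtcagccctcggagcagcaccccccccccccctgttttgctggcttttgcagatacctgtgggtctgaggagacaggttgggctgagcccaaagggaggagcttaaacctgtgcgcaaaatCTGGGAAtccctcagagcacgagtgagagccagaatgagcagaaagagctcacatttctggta
The interleukin 6 motif was matched in Fgb, starting at base -91 from the start, and in Fgg at base -13. The C/EBP motif was matched in Fga at base -135 and in Fgb at base -80. The HNF1 motif was matched in Fga at base -43 and in Fgb at base -29. No matched stretches overlap. These letters occurred in 11.1%, 10.8% and 7.1% of all 32851 windows of this length, in the order the motifs are listed. Of the 7 genes with a window in the table, 2 held the first motif, 5 the second and 5 the third, and Serpina1a, Serpina1b and Serpina1d each held the second and the third.

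Fgg, the γ chain gene, was highest in WT diabetic kidneys and far lower in KO diabetic kidneys. It measured 1.73, 1.41, 1.81 and 2.98 CPM in KO diabetic kidneys. It measured 15.9, 13.1, 8.77 and 11.6 CPM in WT diabetic kidneys. The lowest WT diabetic library lay above the highest KO diabetic one, and the fitted log2 fold change was -2.63 ± 0.31 (SE), a fold of 0.161. The non-diabetic values were 1.98, 4.02, 2.82 and 2.36 CPM in KO kidneys and 2.42, 5.55, 3.81 and 3.31 CPM in WT kidneys. These 2 groups overlapped, with a log2 fold change of -0.44 ± 0.30. For WT diabetic over WT non-diabetic kidneys there was again no overlap, and the log2 fold change was 1.71 ± 0.29. In the comparison of KO diabetic with KO non-diabetic kidneys the groups overlapped and the log2 fold change was -0.49 ± 0.30. The difference between the diabetes effects, KO minus WT, was -2.19 ± 0.42 on the log2 scale. The direction of Fgg was the same under all 28 fits run for each comparison of 2 groups, and its log2 fold change between KO diabetic and WT diabetic kidneys ran from -2.88 to -2.10.

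Fga, the Aα chain gene, was also highest in WT diabetic kidneys, with a smaller difference than Fgg. It measured 7.05, 8.31, 11.4 and 18.8 CPM in KO diabetic kidneys, against 28.3, 20.6, 18.2 and 23 CPM in WT diabetic kidneys. The groups overlapped through K596 alone (18.8 CPM) and K844 (18.2 CPM), and the log2 fold change was -0.98 ± 0.40, and -0.55 once mitochondrial share was fitted. KO non-diabetic kidneys held 10.5, 9.52, 10.3 and 13.5 CPM, and WT non-diabetic kidneys held 12.8, 12.3, 13.6 and 2.13 CPM. WT diabetic libraries all lay above WT non-diabetic ones, with a log2 fold change of 1.14 ± 0.40. KO diabetic and KO non-diabetic kidneys averaged 11.4 ± 5.29 and 11 ± 1.77 CPM (SD, n = 4 each), with a log2 fold change of 0.06 ± 0.40, and -0.29 without K596. In the non-diabetic comparison, KO over WT, the log2 fold change was 0.10 ± 0.40 with all libraries and -0.23 without K861, whose Fga level was 2.13 CPM.

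Fgb, the Bβ chain gene, was close to the detection limit. Its counts were 0, 4, 1 and 34 in KO diabetic kidneys and 0, 17, 3 and 1 in KO non-diabetic kidneys. They were 33, 26, 20 and 33 in WT diabetic kidneys and 5, 32, 12 and 5 in WT non-diabetic kidneys. WT diabetic was the only group in which all 4 libraries held 20 counts or more. A library at 0 allows up to 3 counts, which is 0.132 to 0.151 CPM across the kidney libraries. The log2 fold change between KO diabetic and WT diabetic kidneys was -1.52 ± 0.99, and -3.88 without K596. Between KO diabetic and KO non-diabetic kidneys it was 0.76 ± 1.10, and -1.61 without K596 and 2.66 without K560, so its direction rested on single libraries.

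**Figure D1:**
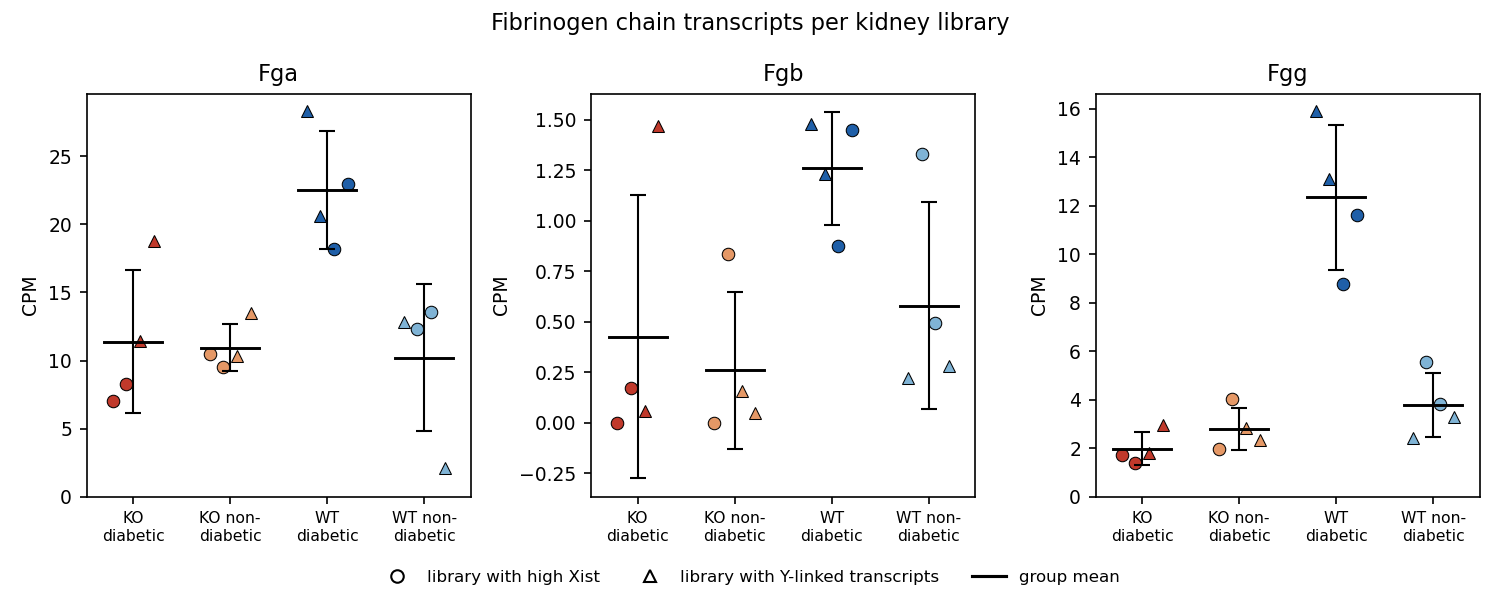
CPM of Fga, Fgb and Fgg (linear axes) in the 16 kidney libraries by group; lines are group means and bars ± SD over 4 libraries, which for Fgb reach below 0. The 4 WT diabetic Fgg points lie between 8.77 and 15.9 CPM, and the other 12 libraries lie between 1.41 and 5.55 CPM.

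K596 carried more hepatocyte-type transcript than any other kidney library. All 14 hepatocyte markers were above 0 there, as they also were in K582, and the list summed to 105 CPM, against 10.7 to 49.1 CPM in the other 15 libraries. Counts of Cyp3a11, a liver drug-metabolising enzyme gene, were 91 in K596 and 0 to 11 elsewhere, and counts of Ahsg, the fetuin-A gene, were 86 in K596 and 0 to 15 elsewhere. K596 also had the highest Fga, Fgb and Fgg of its group. The other 3 KO diabetic libraries held 7.05 to 11.4 CPM of Fga, below all 4 WT diabetic libraries. In WT diabetic kidneys the marker list summed to 24.7 to 49.1 CPM, of which Alb, the albumin gene, was 21.1 to 43.7 CPM. There Cyp3a11 had 1 to 5 counts, Ahsg 0 to 12 and Cps1, a urea cycle gene, 0 to 13, and 2 of the 14 markers were at 0 in all 4 libraries. In K597, the library with the highest Fgg, 6 of the 14 markers were above 0, with 471 counts of Alb, 48 of Apoa2, 18 of Slc10a1, a bile acid transporter gene, 7 of Cyp2c29, 4 of Tdo2 and 1 of Cyp3a11. In the other groups the list summed to 10.7 to 27.3 CPM (KO non-diabetic) and 14.3 to 28.4 CPM (WT non-diabetic). Beyond these values, the part of liver-type transcript in the fibrinogen levels was not tested.

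The balance between the chains also differed. Per unit of transcript length, in the authors' TPM (a length-corrected level), the ratio of Fga to Fgg was 4.48 ± 0.866 in KO diabetic kidneys and 1.44 ± 0.173 in WT diabetic kidneys (SD, n = 4 each). The ratio was 3.19, 4.75, 5.0 and 4.97 in the KO diabetic libraries and 1.38, 1.23, 1.62 and 1.54 in the WT diabetic libraries, with no overlap. It was 4.19, 1.85, 2.88 and 4.56 in KO non-diabetic kidneys and 4.17, 1.74, 2.78 and 0.501 in WT non-diabetic kidneys, where the lowest value was again K861. Of the summed fibrinogen TPM, Fgg made up 18.5% ± 3.64 in KO diabetic and 40.4% ± 2.88 in WT diabetic kidneys. Fgb made up at most 3.55% in any library. Summed over the chains, KO diabetic kidneys held 13.8 ± 6.61 CPM, KO non-diabetic 14 ± 1.52, WT diabetic 36.1 ± 7.36 and WT non-diabetic 14.6 ± 6.09 CPM (SD, n = 4 each). The lowest WT diabetic sum, 27.9 CPM, lay above the highest of the other 12 libraries, 23.3 CPM in K596.

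**Figure D2:**
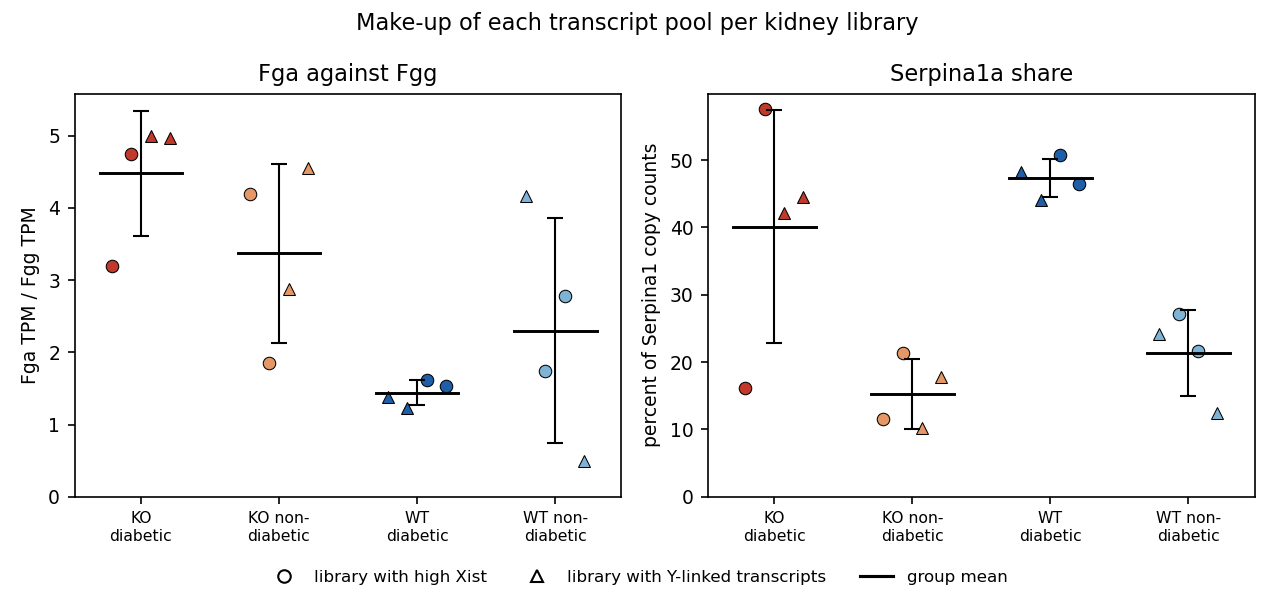
Left, the ratio of Fga to Fgg TPM in each kidney library; right, the percent of summed Serpina1a to Serpina1e counts given to Serpina1a. Lines are means and bars ± SD over 4 libraries; the WT diabetic ratios lie between 1.23 and 1.62, and the WT diabetic Serpina1a shares between 44.1% and 50.8%.

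The genes whose pattern over the 16 libraries lay nearest to Fgg were Ccnd1 (cyclin D1), Slc6a19 (a neutral amino acid transporter of the proximal tubule), Ano3, Retreg1 and Nepn. Likeness was the root mean square difference of log2(CPM + 1) after centring each gene on its own mean, and it was 0.39, 0.39, 0.40, 0.41 and 0.42 in that order, over 12893 genes. Ccnd1 averaged 107 CPM in KO diabetic, 119 in KO non-diabetic, 373 in WT diabetic and 98.7 in WT non-diabetic kidneys. Its lowest WT diabetic library, 251 CPM, lay above the highest of the other groups, 203 CPM. Fga ranked 1486th by the same measure, at 0.71. These genes were selected for likeness, so their group means are a description.

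The Serpina1 copies share most of their sequence, which limits how far single copies can be told apart. In GRCm38 they lie in 1 cluster on the minus strand of chromosome 12, with Serpina1b at 103728156 to 103830373, Serpina1d at 103763594 to 103773592 inside that span, Serpina1a at 103853589 to 103863562, Serpina1c at 103894926 to 103904887 and Serpina1e at 103946931 to 103958975. Their coding sequences were 96.3% to 98.5% identical over 1239 aligned bases, and Serpina1a and Serpina1c were the closest pair. Of the 31-base words in each copy's transcripts, 34.8% of those of Serpina1a occurred in no other gene, 55.3% of Serpina1b, 17.8% of Serpina1c, 35.3% of Serpina1d and 45.8% of Serpina1e. For Fga, Fgb, Fgg and Apoh this was 100%, and for Hp 99.7%. The counts of Serpina1a, Serpina1b and Serpina1d were not whole numbers in any of the 16 libraries, and the counts of Fga and Fgg were not whole in 13.

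The 60 coding bases that differ most among the copies are shown because differences between the copies are densest there. They lie in the last coding exon, in the part that encodes the reactive-centre loop, the bait that a serpin presents to its target protease. Of the 60 positions, 18 vary among the copies and are in capitals, against a median of 4 over all such stretches of the alignment. Over the whole alignment 86 of 1239 ungapped bases vary, so most differences between the copies lie outside this stretch. The stretches are chr12:103853757-103853816 for Serpina1a, chr12:103728324-103728383 for Serpina1b, chr12:103895094-103895153 for Serpina1c, chr12:103763762-103763821 for Serpina1d and chr12:103947100-103947159 for Serpina1e, all on the minus strand of GRCm38 and written 5′ to 3′ from GENCODE M21 transcripts.
Serpina1a: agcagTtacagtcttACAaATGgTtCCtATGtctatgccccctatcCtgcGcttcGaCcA
Serpina1b: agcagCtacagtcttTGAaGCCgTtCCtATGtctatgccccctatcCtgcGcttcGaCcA
Serpina1c: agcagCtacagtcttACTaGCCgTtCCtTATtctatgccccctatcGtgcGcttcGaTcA
Serpina1d: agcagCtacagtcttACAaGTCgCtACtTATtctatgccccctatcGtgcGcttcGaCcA
Serpina1e: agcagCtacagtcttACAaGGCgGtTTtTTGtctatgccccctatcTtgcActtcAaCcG
Every pair of copies differs within the capitals.

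Serpina1a had a higher mean in diabetic than in non-diabetic kidneys of both genotypes. It measured 33.1, 268, 187 and 209 CPM in KO diabetic kidneys and 13.6, 11.8, 23.8 and 66.7 CPM in KO non-diabetic kidneys. The groups overlapped through K587 and K584 alone, and the log2 fold change was 2.59 ± 0.74. It measured 172, 120, 322 and 217 CPM in WT diabetic kidneys and 49.7, 15.9, 9.18 and 5.33 CPM in WT non-diabetic kidneys. Here the groups did not overlap, and the log2 fold change was 3.37 ± 0.77, and 4.35 without K812. For KO diabetic over WT diabetic kidneys the groups overlapped, with a log2 fold change of -0.25 ± 0.70. Its sign turned, to 0.09 without K587, to 0.03 without K844 and to 0.28 with the mitochondrial share as a covariate.

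Serpina1d, the copy with the highest mean in every group, had overlapping groups in every comparison. It measured 166, 188, 235 and 229 CPM in KO diabetic kidneys and 97.0, 37.2, 195 and 289 CPM in KO non-diabetic kidneys, with a log2 fold change of 0.40 ± 0.55. It measured 172, 140, 299 and 239 CPM in WT diabetic kidneys and 143, 37.3, 28.2 and 32.9 CPM in WT non-diabetic kidneys, with a log2 fold change of 1.82 ± 0.57. Only K812, at 143 CPM, reached the WT diabetic range, and without it the log2 fold change was 2.70. The difference between the diabetes effects, KO minus WT, was -1.41 ± 0.78 on the log2 scale, and like the other kidney values it carries no test. In the comparison of KO non-diabetic with WT non-diabetic kidneys the log2 fold change was 1.36 ± 0.56, with overlapping groups, and 2.24 without K812.

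Serpina1b was a minor copy. It ranged over 2.38 to 25.6 CPM in KO diabetic, 2.89 to 15.9 CPM in KO non-diabetic, 8.71 to 11.6 CPM in WT diabetic and 1.85 to 9.07 CPM in WT non-diabetic kidneys. Every comparison of 2 groups overlapped. The log2 fold change was 0.79 ± 0.67 for KO diabetic over KO non-diabetic and 1.35 ± 0.69 for WT diabetic over WT non-diabetic, and 2.23 for the second without K812. Serpina1c and Serpina1e, which are not among the 8 genes but share their reads, stayed at 1.80 to 6.48 CPM and at 0 to 0.519 CPM over the 16 libraries.

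The sum of the 5 copies does not depend on how reads were divided among them. It was 205, 467, 445 and 471 CPM in KO diabetic kidneys and 117, 55.6, 233 and 375 CPM in KO non-diabetic kidneys, with a log2 fold change of 1.02 ± 0.57. It was 356, 273, 634 and 467 CPM in WT diabetic kidneys and 205, 58.5, 42.3 and 43.0 CPM in WT non-diabetic kidneys, with a log2 fold change of 2.31 ± 0.59 and no overlap. Between KO diabetic and WT diabetic kidneys it was -0.12 ± 0.56. The share given to Serpina1a was 40.1% ± 17.3 in KO diabetic and 15.2% ± 5.23 in KO non-diabetic kidneys, and 47.4% ± 2.83 in WT diabetic and 21.4% ± 6.39 in WT non-diabetic kidneys (SD, n = 4 each). K587 was the only diabetic library with a share under 40%, at 16.2%. By the same likeness measure the genes nearest to the summed copies were Slco4c1, Reep6, Upp2, Cdh2 and Crybg2, at 0.61 to 0.87.

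**Figure D3:**
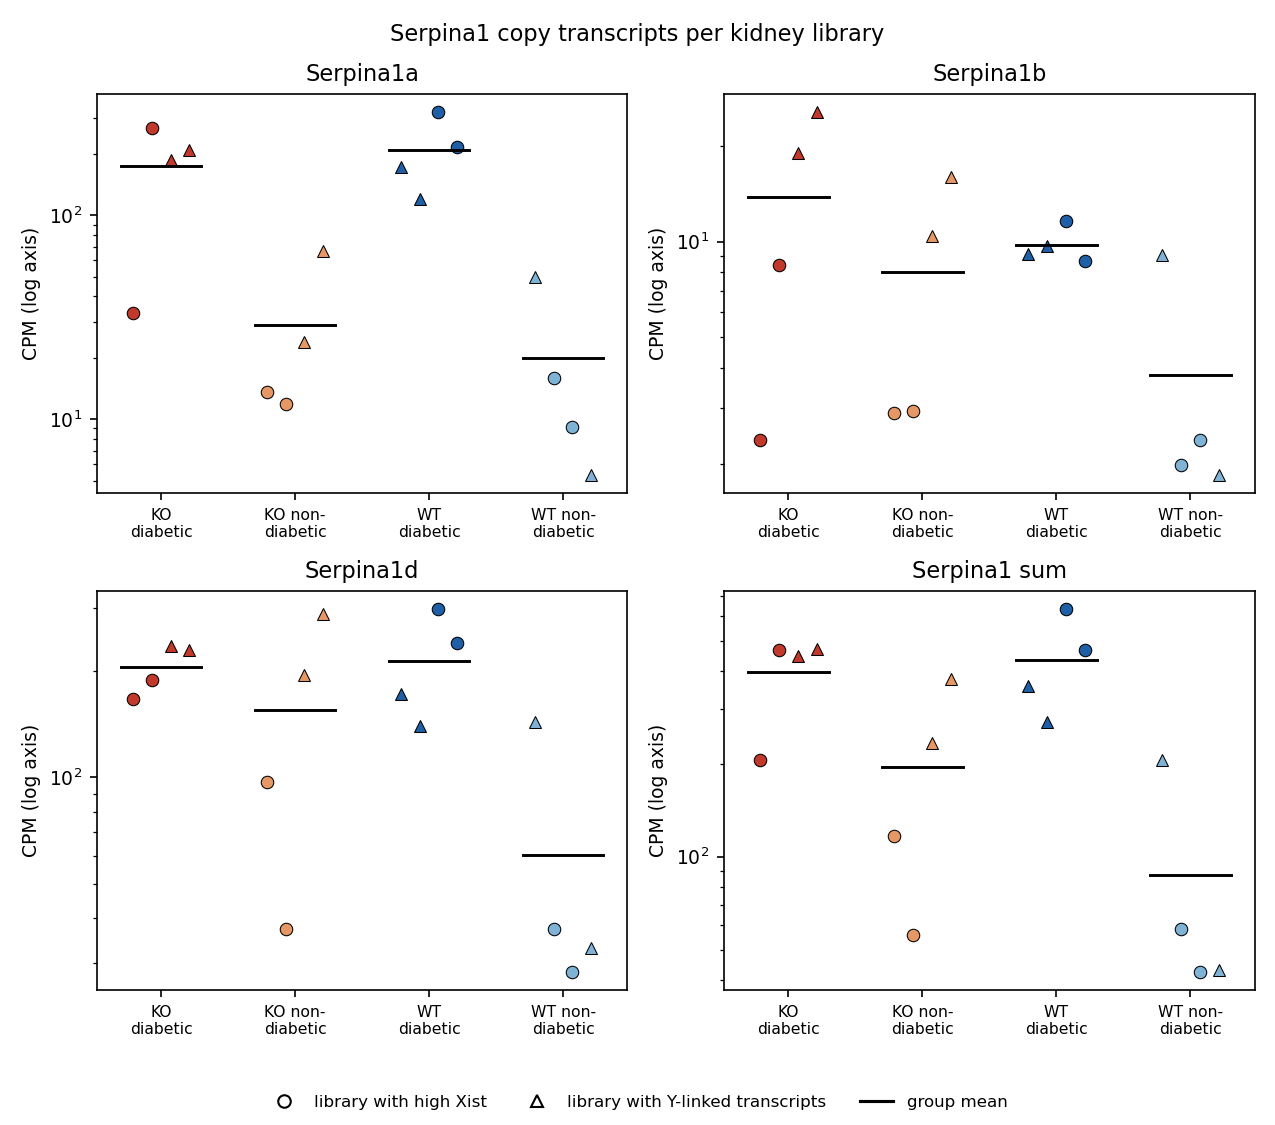
CPM of Serpina1a, Serpina1b, Serpina1d and the sum of the 5 copies (log axes) in the 16 kidney libraries; lines are group means. In WT non-diabetic kidneys K812 stands above the other 3 libraries in all 4 panels, at 205 CPM for the sum against 42.3 to 58.5 CPM.

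Hp (ENSMUSG00000031722.10, minus strand of chromosome 8, 109575128 to 109579172 in GRCm38) was high in a few libraries of different groups. It measured 0.778, 15.6, 0.483 and 2.59 CPM in KO diabetic kidneys and 1.86, 0.147, 2.02 and 0.295 CPM in KO non-diabetic kidneys. It measured 0.314, 7.03, 2.36 and 0.44 CPM in WT diabetic kidneys and 25.8, 2.40, 1.93 and 0.841 CPM in WT non-diabetic kidneys. The highest libraries, K812, K588 and K645, each came from a different group, and all groups overlapped. The adipose markers, 7 genes that include Adipoq and Plin1, summed to 586 CPM in K812, the highest of the 16 libraries. They summed to 31.8 CPM in K588 and 35.1 CPM in K645, the highest value of each of these groups, and 2.81 to 13.5 CPM in the other libraries of these 2 groups. K819, K834 and K559 had adipose sums of 255, 221 and 164 CPM with Hp of 2.40, 1.93 and 1.86 CPM. The log2 fold change between KO diabetic and WT diabetic kidneys was 0.95 ± 1.22 with all libraries and -0.95 without K588. For WT diabetic over WT non-diabetic kidneys it was -1.62 ± 1.22 with all libraries and 0.54 without K812. The genes nearest to Hp were Upk1b, a bladder lining gene, Htra3, Aoc3, Trarg1 and Ntrk2, at 0.87 to 0.89, of which Aoc3 and Trarg1 are known from fat cells. The part of adipose transcript in the Hp values was not tested.

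Apoh (ENSMUSG00000000049.11, plus strand of chromosome 11, 108343354 to 108414396, overlapping Prkca on the other strand) differed with the Xist and Y-linked transcripts in every group. It lay between 1.84 and 18.8 CPM in the 8 libraries with Y-linked transcripts and between 0.0792 and 1.14 CPM in the 8 libraries with high Xist, with no overlap. KO diabetic kidneys held 9.67 and 12.8 CPM in libraries with Y-linked transcripts and 0.389 and 1.03 CPM in libraries with high Xist. KO non-diabetic kidneys held 18.2 and 18.8 CPM with Y-linked transcripts and 0.0792 and 0.196 CPM with high Xist. WT diabetic kidneys held 2.65 and 1.84 CPM with Y-linked transcripts and 0.786 and 1.14 CPM with high Xist. WT non-diabetic kidneys held 9.02 and 9.31 CPM with Y-linked transcripts and 0.124 and 0.082 CPM with high Xist. WT diabetic kidneys had the smallest gap, with the lowest values among libraries with Y-linked transcripts and 2 of the 3 highest among those with high Xist. Since each group held both kinds of library, every comparison of 2 groups overlapped. The log2 fold change between KO diabetic and WT diabetic kidneys was 1.89 ± 1.44, and 0.87 ± 0.84 with the kind of library as a covariate. In the comparison of WT diabetic with WT non-diabetic kidneys it was -1.51 ± 1.44, and -0.12 ± 0.88 with the covariate. Sex is not in the labels, and the split was read from the transcripts. None of the other 7 genes separated the 2 kinds of library over all 16. Within groups, with 2 libraries of each kind, most did so somewhere. Libraries with Y-linked transcripts lay above the others in 2 of 4 groups and below in 1 for Fgg and for Serpina1d. They lay above in 2 groups for Serpina1b, above in 1 and below in 1 for Serpina1a, above in 1 for Fga and below in 1 for Fgb. The genes nearest to Apoh were Mpped1, Cyp4b1, Ugt2b5, Chst11 and Azgp1, at 0.49 to 0.57.

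**Figure D4:**
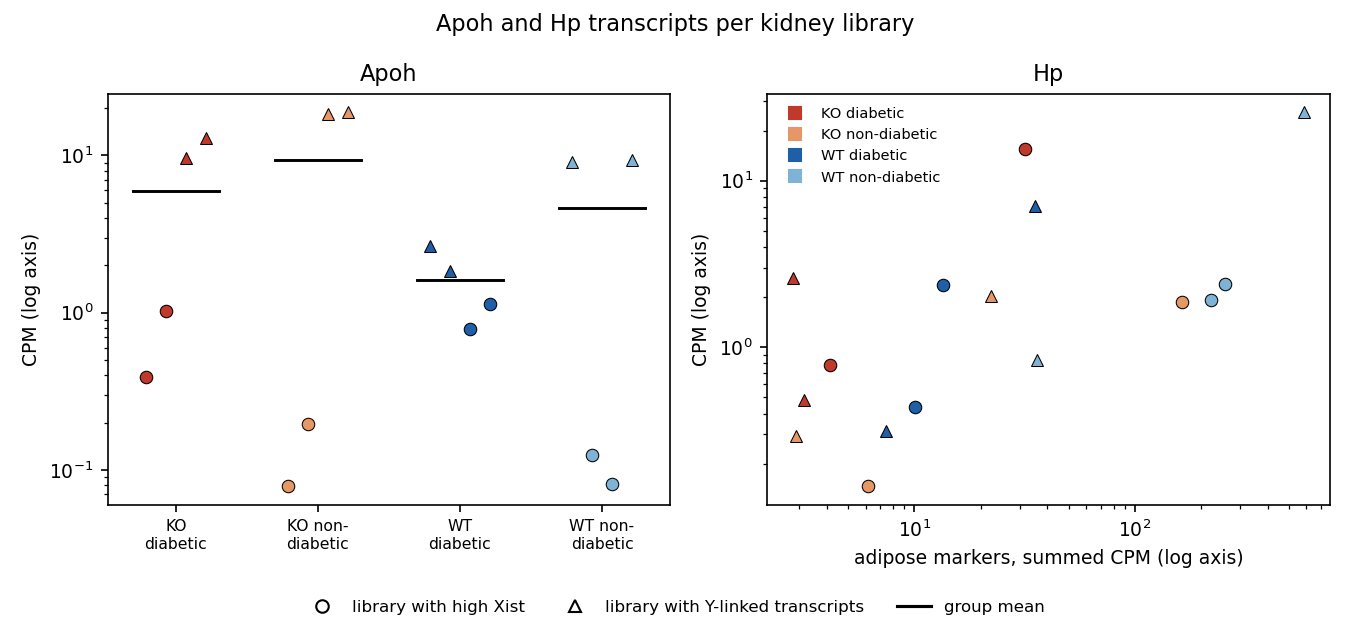
Left, Apoh CPM (log axis) by group with group means as lines; right, Hp CPM against the summed CPM of 7 adipose markers (log axes), 1 point per kidney library. All 8 triangles of Apoh, 1.84 CPM and above, lie above all 8 circles, and K812 is highest on both axes of the Hp plot.

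Set against all 18177 genes tested, the 8 genes were counted as follows; the kidney values chose them, so nothing is read from these shares. For KO diabetic against WT diabetic kidneys, 1 of 8 (Fgg) was past the threshold and lower and none was higher, where 8.99% of all genes were called lower and 10.7% higher (19.7% in all). Fgg was also the only one without overlap between the groups, where 6.73% of all genes lay lower without overlap and 8.57% higher. For WT diabetic against WT non-diabetic kidneys, Fgg and Serpina1a were past the threshold and higher and none was lower, where 2.81% of genes were called higher and 4.49% lower (7.29% in all). Fga, Fgg and Serpina1a lay higher without overlap and none lower, where 8.78% of genes lay higher and 9.88% lower. For KO non-diabetic against WT non-diabetic kidneys none of the 8 was past the threshold or free of overlap, where 0.143% of genes were called higher and 0.292% lower (0.435% in all), and 1.55% lay higher and 2.32% lower without overlap. For KO diabetic against KO non-diabetic kidneys none of the 8 was past the threshold or free of overlap, where 0.0495% were called higher and 0.0275% lower (0.077% in all), and 2.05% lay higher and 1.98% lower without overlap. The interaction called 0 of 18177 genes with edgeR, and 5301 had an unadjusted p under 0.05. The median log2 fold change of the 8 genes was -0.15 for KO diabetic over WT diabetic and 1.25 for WT diabetic over WT non-diabetic, against 0.04 and -0.05 over all genes. It was 0.32 for KO non-diabetic over WT non-diabetic and 0.58 for KO diabetic over KO non-diabetic, against -0.01 and 0.00. These comparisons share groups, so their values are not independent. Which of the 8 were past the threshold depended on the fit. All these fits reuse the values that chose the genes, so passing it is a description and no support. For the interaction, Fgg was not past it in the edgeR fit used for the shares above. Fgg was past it in every fit for KO diabetic against WT diabetic and for WT diabetic against WT non-diabetic kidneys, and for the interaction with DESeq2, without the filter, with the kind of library as a covariate, and without K596 or K559. Serpina1a for WT diabetic against WT non-diabetic fell short of it with limma without a filter. Serpina1d reached it there with DESeq2, without the filter, with the kind of library, and without K596, K560 or K812, Fga with DESeq2 and Serpina1b with the kind of library. Fga reached it for KO diabetic against WT diabetic without K596 or K861, Fgb without K596, and Serpina1a for KO diabetic against KO non-diabetic without K596.

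**Figure D5:**
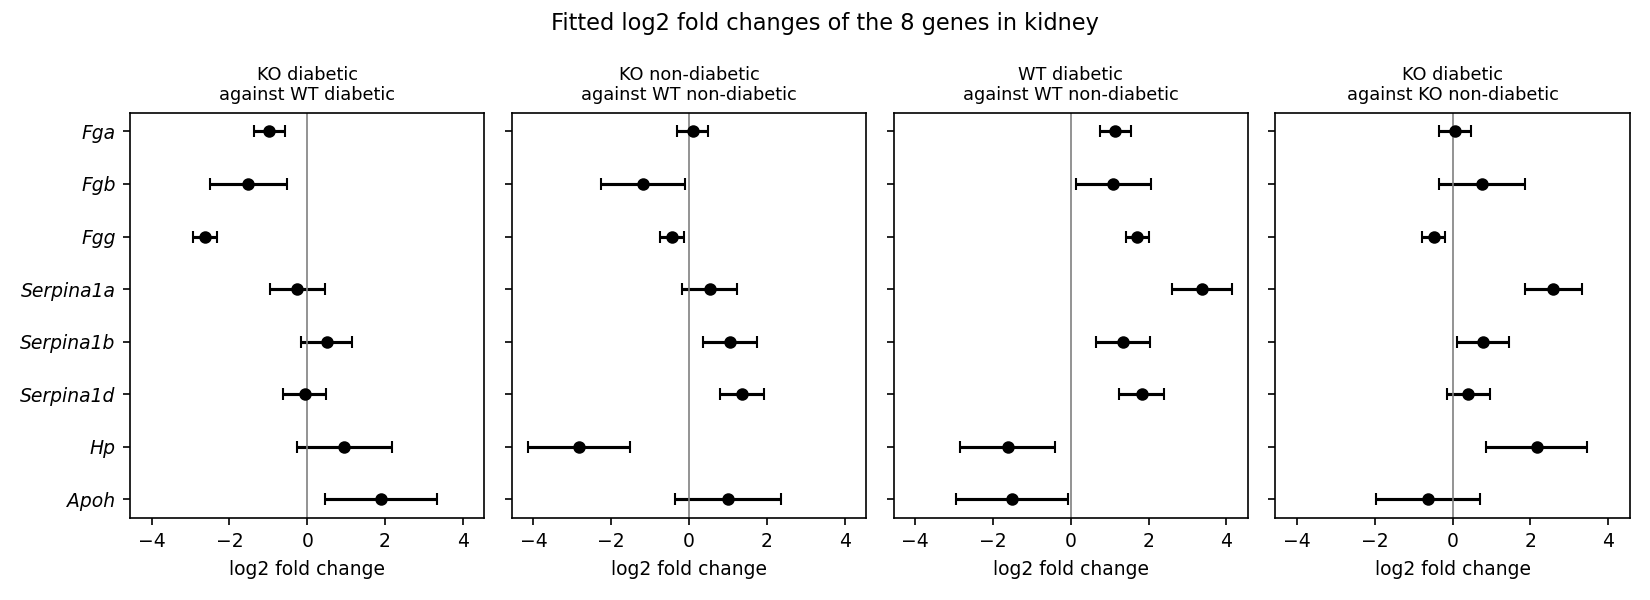
Fitted log2 fold changes of the 8 genes (points) with their standard errors (bars) in 4 comparisons of kidney groups. Fgg lies at -2.63 for KO diabetic over WT diabetic and at 1.71 for WT diabetic over WT non-diabetic; Hp and Apoh have the widest bars.

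Other genes of the same systems were taken from 6 lists, of 119 genes in all, of which 85 were tested. The lists came from general knowledge and hold none of the genes described above. They were drawn up with earlier results of these data known, so their calls are not an independent test. The list genes used the edgeR quasi-likelihood fit, with p-values adjusted over all 18177 genes by Benjamini-Hochberg. Between KO diabetic and WT diabetic kidneys 12 rose and 3 fell, 15 of 85. Over all genes 10.7% were called higher and 8.99% lower (19.7% in all). For each list below, the shares over all genes in this comparison are the same. With mitochondrial share as a covariate 1 of the list genes was called, Apoa1 (log2 fold change 1.87 ± 0.33). With limma on TPM, in all 3 fits, 0 were called. The calls named below for this comparison thus rest on the count model, and all but that of Apoa1 on the fit without that covariate. For WT diabetic over WT non-diabetic kidneys 5 rose and 7 fell, 12 of 85, where 2.81% of all genes were called higher and 4.49% lower (7.29% in all). The count was 12 with mitochondrial share as a covariate, 1 with limma on TPM at either pseudocount and 0 without a filter. In the comparison of KO non-diabetic with WT non-diabetic kidneys none was called, and 9 of 85 had an unadjusted edgeR p under 0.05. Over all genes 6.07% had one. For KO diabetic against KO non-diabetic none was called and 17 of 85 had one, where 14.4% of all genes did. For the interaction none was called and 18 of 85 had one, where 29.2% of all genes did. DESeq2, which tested 118 of the genes, called 24 between KO diabetic and WT diabetic kidneys, 18 between WT diabetic and WT non-diabetic, 0 between KO non-diabetic and WT non-diabetic, 6 between KO diabetic and KO non-diabetic and 7 for the interaction. The share that DESeq2 called over all genes is not given here, so nothing is read from these counts.

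Of 14 liver coagulation proteins tested, 1 rose and 1 fell between KO diabetic and WT diabetic kidneys. Kng1, a kininogen gene that shares sequence with Kng2, averaged 7.84 ± 1.45 CPM in KO diabetic and 4.41 ± 0.983 CPM in WT diabetic kidneys (SD, n = 4 each; log2 fold change 0.83 ± 0.22, edgeR adjusted p = 0.0242). F13b, the carrier subunit of the factor that cross-links fibrin, averaged 32.9 ± 30.3 CPM in KO diabetic and 88.5 ± 30.6 CPM in WT diabetic kidneys (log2 fold change -1.43 ± 0.48, edgeR adjusted p = 0.0494), with 1 KO diabetic library at 78.2 CPM. Between WT diabetic and WT non-diabetic kidneys F5, the factor V gene, rose (log2 fold change 2.17 ± 0.56, edgeR adjusted p = 0.0301) and Kng1 fell (-0.85 ± 0.22, edgeR adjusted p = 0.0313).

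Of the plasma carriers and inhibitors, 22 tested, 3 rose and 1 fell between KO diabetic and WT diabetic kidneys. Apoa1, the main protein of high-density lipoprotein, averaged 2.76 ± 1.59 CPM in KO diabetic and 0.884 ± 0.162 CPM in WT diabetic kidneys (edgeR adjusted p = 0.00917), and its highest library was K596, at 5.01 CPM. Apoa2 (log2 fold change 0.94 ± 0.27, edgeR adjusted p = 0.0287) and Serpinf1 (1.38 ± 0.43, edgeR adjusted p = 0.0378) were the other rises. Apoa2 is also on the hepatocyte marker list, and its highest library was K596 too. It held 5.41 to 8.73 CPM in KO diabetic and 2.16 to 4.71 CPM in WT diabetic kidneys. The part of liver-type transcript in these rises was not tested. Apob, the structural protein of low-density lipoprotein, averaged 103 ± 58.6 CPM in KO diabetic and 310 ± 146 CPM in WT diabetic kidneys (log2 fold change -1.58 ± 0.49, edgeR adjusted p = 0.0376). Against the non-diabetic group, Apob averaged 310 ± 146 CPM in WT diabetic and 52.8 ± 29.7 CPM in WT non-diabetic kidneys (log2 fold change 2.55 ± 0.51, edgeR adjusted p = 0.00918). Gc, the vitamin D binding protein gene, averaged 171 ± 55.1 CPM in WT diabetic and 21 ± 17.1 CPM in WT non-diabetic kidneys (log2 fold change 3.02 ± 0.79, edgeR adjusted p = 0.0315). Serpina6, the corticosteroid-binding globulin gene, was called lower in WT diabetic than in WT non-diabetic kidneys (edgeR adjusted p = 0.0317), with WT diabetic libraries at 0 to 0.0449 CPM and WT non-diabetic ones at 0 to 11.8 CPM, which overlap.

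Acute phase proteins, 9 tested, gave no call between KO diabetic and WT diabetic kidneys by edgeR, with 3 at an unadjusted p under 0.05. Over all genes 39.5% had such a p. Orm1 and Orm3, orosomucoid genes with related sequences, fell between WT diabetic and WT non-diabetic kidneys (edgeR adjusted p = 0.0387 and 0.0417). Orm1 held 0 to 0.189 CPM in WT diabetic and 0.0561 to 9.29 CPM in WT non-diabetic kidneys, and K812, with the highest adipose sum, was the highest library. Among the neighbours of the Serpina cluster, 4 tested, Serpina3g averaged 1.52 ± 0.393 CPM in KO diabetic, 0.345 ± 0.236 in WT diabetic and 1.53 ± 1.12 in WT non-diabetic kidneys. It rose between KO diabetic and WT diabetic kidneys (edgeR adjusted p = 0.0259) and fell between WT diabetic and WT non-diabetic kidneys (edgeR adjusted p = 0.0355).

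Of the genes for fibrin formation and removal in tissue, 19 tested, 3 rose and none fell between KO diabetic and WT diabetic kidneys. They were Icam1, an adhesion molecule that also binds fibrinogen (22.6 ± 4.0 CPM in KO diabetic and 14.1 ± 1.28 CPM in WT diabetic kidneys, edgeR adjusted p = 0.0121), Serpine2, a thrombin inhibitor (36.1 ± 4.93 CPM in KO diabetic and 21.4 ± 8.45 CPM in WT diabetic kidneys, edgeR adjusted p = 0.0256), and Procr, the protein C receptor (1.88 ± 0.863 CPM in KO diabetic and 0.818 ± 0.237 CPM in WT diabetic kidneys, edgeR adjusted p = 0.0394). The thrombin receptor gene F2r averaged 48.1 ± 6.07 CPM in WT diabetic and 25.1 ± 3.61 CPM in WT non-diabetic kidneys (edgeR adjusted p = 0.0113). Plau, the urokinase that turns plasminogen into plasmin, averaged 96.0 ± 14.9 CPM in WT diabetic and 284 ± 143 CPM in WT non-diabetic kidneys (log2 fold change -1.57 ± 0.37, edgeR adjusted p = 0.0195).

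Of the regulators of plasma protein genes, 17 tested, 4 rose and 1 fell between KO diabetic and WT diabetic kidneys. The rises include Il1r1, the interleukin 1 receptor gene (8.22 ± 1.82 CPM in KO diabetic and 4.67 ± 0.809 CPM in WT diabetic kidneys, edgeR adjusted p = 0.0129), Socs3, a STAT3 target that dampens the pathway (2.17 ± 0.277 CPM in KO diabetic and 1.02 ± 0.123 CPM in WT diabetic kidneys, edgeR adjusted p = 0.0204), and Osmr, the oncostatin M receptor gene (12.6 ± 2.13 CPM in KO diabetic and 6.99 ± 0.851 CPM in WT diabetic kidneys, edgeR adjusted p = 0.0231). Ppara, a fatty acid receptor, averaged 10.9 ± 4.31 CPM in KO diabetic and 25.4 ± 11.4 CPM in WT diabetic kidneys (edgeR adjusted p = 0.0249). Against WT non-diabetic kidneys, in WT diabetic kidneys Ppara rose (25.4 ± 11.4 CPM in WT diabetic and 10.3 ± 3.15 CPM in WT non-diabetic kidneys, edgeR adjusted p = 0.0264) and Il1r1 fell (4.67 ± 0.809 CPM in WT diabetic and 7.22 ± 0.849 CPM in WT non-diabetic kidneys, edgeR adjusted p = 0.0476). All 8 macrophage markers were also called higher in KO diabetic than in WT diabetic kidneys, summing to 94.4 to 133 CPM in KO diabetic and 31.7 to 53.3 CPM in WT diabetic libraries, and their part in these rises was not tested. They summed to 67.4 to 127 CPM in WT non-diabetic libraries, above all WT diabetic ones, and their part in the lower Il1r1 and Serpina3g of WT diabetic kidneys was not tested either. The count of called list genes between KO diabetic and WT diabetic kidneys moved when 1 library was left out: 28 were called without K596, 7 without K591, 6 without K587 or K588, 5 without K877, 4 without K597 and 2 without K645. Without K596, 17 were higher and 11 lower. Without K587, K588, K591, K597, K645 or K877, 0 were lower, so Apob, F13b and Ppara each lost their call there. Each such fit also has fewer libraries, and the cause of the changes was not tested. For WT diabetic against WT non-diabetic kidneys the count was 2 without K597 or K645, 3 without K877 or K834 and 5 without K819.

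Retina, which the choice of members did not use, held almost none of these transcripts. In 14 retina libraries (3 KO diabetic, 4 KO non-diabetic, 4 WT diabetic and 3 WT non-diabetic) with 19979385 to 20819158 counts each, Fga and Fgb had 0 counts, which allows up to 0.144 to 0.15 CPM. Fgg had 1 to 9 counts per library, Hp 1 to 6, Apoh 2 to 12 and the Serpina1 copies 0 to 2. In CPM, Fgg averaged 0.356 ± 0.0698 in KO diabetic, 0.222 ± 0.141 in KO non-diabetic, 0.234 ± 0.135 in WT diabetic and 0.0821 ± 0.0287 in WT non-diabetic retinas (SD; n = 3, 4, 4 and 3). None of the 8 passed the filter on low counts in retina, and edgeR without the filter, DESeq2 and limma on all genes called none of those with counts in any of the 5 comparisons. Over all 20979 retina genes tested, edgeR called 1.78% for KO diabetic against WT diabetic, 1.14% for KO non-diabetic against WT non-diabetic, 2.48% for WT diabetic against WT non-diabetic, 0.0% for KO diabetic against KO non-diabetic and 0.124% for the interaction. The size of difference that these retina counts could show was not tested.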

How the data were processed

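RNA was sequenced from 16 kidney and 14 retina libraries of 21 mice. Per the labels' protocols, organs were flash frozen, RNA was extracted with Trizol and libraries were run on a BGISEQ-500. The submitters' processing notes list Trim Galore 0.6.4, kallisto (given as 0.4.6) and GRCm38.p6. The authors deposited expected counts and TPM per gene. Versioned Ensembl IDs were named from GENCODE M21, and 55144 of 55385 matched. Expected counts (34.9% not whole) were rounded and tested with edgeR 4.0.16 (quasi-likelihood, TMM, 4 groups in 1 fit) in R 4.3.3, with Benjamini-Hochberg adjustment over all genes and a threshold of 0.05. Alternatives used DESeq2 1.42.0, limma 3.58.1 on log2(TPM + 1) and log2(TPM + 0.1), other filters, normalisation, covariates and each library left out. The fit was tested on simulated data.

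The members and lists were chosen with earlier results of these data known. Named list genes were the called genes of each list, at most 4 by p. For likeness, the 5 nearest genes are given. A count of 0 allows 3 counts, which covers counting error only. Replicates are separate mice, and p-values measure the spread between them. Coding sequences of the Serpina1 copies were aligned with MAFFT 7.526.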

Additional observations from a re-analysis of the deposited data

Results flagged for a closer look

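Of 36 sets of 4 kidney values screened, 8 had 1 library far from the other 3 by Dixon's criterion. The criterion flags about 1 in 20 sets where values are normally distributed and sets are independent. These sets were CPM values and were not independent, since the Serpina1 sum was screened beside its own copies. The count is therefore not set against that rate. In WT non-diabetic kidneys K812 stood apart for Serpina1b (9.07 CPM, against 1.85 to 2.38 CPM), Serpina1d (143 CPM, against 28.2 to 37.3 CPM), the Serpina1 sum (205 CPM, against 42.3 to 58.5 CPM) and Hp (25.8 CPM, against 0.841 to 2.40 CPM). In the same group K861 stood apart for Fga, at 2.13 CPM against 12.3 to 13.6 CPM. In KO diabetic kidneys K596 stood apart for Fgb (1.47 CPM, against 0 to 0.171 CPM) and K588 for Hp (15.6 CPM, against 0.483 to 2.59 CPM). K587 stood apart there for the Serpina1 sum, at 205 CPM against 445 to 471 CPM.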

How the results depend on the processing

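No called list gene changed direction under the alternatives run, but many lost their call and the counts of called list genes moved. Signs of member values turned beyond those given above: with limma on log2(TPM + 0.1) Apoh was 0.34 for WT diabetic over WT non-diabetic and 0.15 for KO diabetic over KO non-diabetic, Serpina1b was -0.21 for KO diabetic over WT diabetic, and Fga was -0.24 for KO diabetic over KO non-diabetic. Serpina1d for KO diabetic over WT diabetic was 0.28 with mitochondrial share fitted, 0.14 without K844 and 0.03 without K587, and Serpina1a for KO non-diabetic over WT non-diabetic was -0.26 without K584. Between KO diabetic and WT diabetic kidneys 15 were called, against 24 with DESeq2, 29 with the kind of library (Xist or Y-linked) as a covariate, 1 once mitochondrial share was fitted as a covariate and 0 with limma on log2(TPM + 1), log2(TPM + 0.1) or log2(TPM + 1) without a filter. Between WT diabetic and WT non-diabetic kidneys 12 were called, against 19 with the kind of library, 1 with limma on either TPM scale and 0 without a filter. Between KO diabetic and KO non-diabetic kidneys DESeq2 called 6, against 0. For the interaction DESeq2 called 7 and the kind of library gave 3, against 0. Leaving out 1 library at a time gave 2 to 28 called between KO diabetic and WT diabetic kidneys (28 without K596, 7 without K591, 6 without K587 or K588, 5 without K877, 4 without K597 and 2 without K645). It gave 2 to 17 between WT diabetic and WT non-diabetic kidneys (2 without K597 or K645, 3 without K877 or K834, 5 without K819), 0 to 9 between KO diabetic and KO non-diabetic kidneys (9 without K596, 1 without K861), 0 to 15 for the interaction (15 without K596) and 0 to 0 between KO non-diabetic and WT non-diabetic kidneys. The cause was not tested. Fgb (0 to 34 counts) and every retina value are limited by depth, and single Serpina1 copies by shared sequence. No paired analysis was possible because the kidney groups share no animal numbers.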
